A study of Mus musculus with 4 samples.

Results

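The genes described here are 37 genes of the ATF4 programme of amino acid supply, chosen by symbol: the transcription factor ATF4 and its partners, target genes and feedback genes, enzymes of serine, one-carbon, asparagine and proline synthesis, amino acid transporters, and cytosolic tRNA synthetases. Each gene was represented by the brightest, on average, of its probe sets annotated to 1 gene symbol. Of the 37 genes, 36 had such a probe set among 18193 genes in all, and 32 were bright enough to test among 9097 genes tested. Pycr1 was not analysed here, and Mars carries the symbol Mars1 in the platform annotation.

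Expression was measured on 4 Affymetrix arrays, 1 per sample, in C2C12, an established mouse myoblast line that fuses into myotubes when serum is lowered. The cells were grown with 10% fetal bovine serum, moved to medium with 2% horse serum and 25 mM glucose to differentiate, and collected after 48 h. The TC array came from cells given tranylcypromine, an amine oxidase inhibitor that also inhibits the histone demethylase LSD1, the S2101 array from cells given the LSD1 inhibitor S2101, and the 2 vehicle arrays from cells given vehicle alone. The labels give no dose. They do not name separate cultures for the samples, and the p-values therefore rest on a spread between arrays that may be only technical.

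ATF4 is a leucine zipper transcription factor whose mRNA is translated more efficiently when the initiation factor eIF2 is phosphorylated, as happens when amino acids run short or unfolded proteins collect in the endoplasmic reticulum. It binds C/EBP-ATF response elements in its target genes, often together with a C/EBP partner, and raises the uptake of amino acids, their synthesis and their loading onto tRNA. Muscle cells draw on these genes for the protein synthesis that accompanies differentiation.

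The C/EBP-ATF response element was looked for as the letters TGATGNAA, on both strands, in the RefSeq promoter windows of mouse build GRCm38.p6, which run from 250 bases before to 50 after a gene's start. Of the 36 genes, 29 matched a window by gene identifier, and 11 of these 29 (37.9%) held the letters: Chac1, Trib3, Nupr1, Asns, Slc7a11, Slc1a4, Aars, Gars, Iars, Tars and Yars. Trib3 and Slc7a11 were too dim to test. Among all 27025 genes with a window, 1219 (4.51%) held the letters. Among all tested genes with a window, 190 of 7435 (2.56%) held them, and among all 32851 windows 3.97% did. The element was present in 1 of 6 matched genes that fell in the comparison of inhibitors with vehicle, and in 8 of 20 that were tested and did not pass. The stretches before the start of 5 of the 11 genes are shown because they place the element in an enzyme that fell (Asns), in target genes (Chac1 and Nupr1) and in synthetases (Aars and Tars). They are written 5′ to 3′ along the gene, with the element in capitals.
Asns, chr6:7693210-7693329, minus strand: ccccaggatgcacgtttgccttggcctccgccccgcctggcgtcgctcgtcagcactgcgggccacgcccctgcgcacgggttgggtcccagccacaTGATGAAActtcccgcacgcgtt
Chac1, chr2:119351044-119351241, plus strand: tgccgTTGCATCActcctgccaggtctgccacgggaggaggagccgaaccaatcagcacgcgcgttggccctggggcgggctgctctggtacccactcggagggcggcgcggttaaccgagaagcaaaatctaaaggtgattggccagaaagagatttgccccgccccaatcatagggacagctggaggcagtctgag
Nupr1, chr7:126625471-126625590, minus strand: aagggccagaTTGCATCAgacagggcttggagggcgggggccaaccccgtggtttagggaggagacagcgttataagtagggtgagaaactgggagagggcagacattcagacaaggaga
Aars, chr8:111033722-111033841, plus strand: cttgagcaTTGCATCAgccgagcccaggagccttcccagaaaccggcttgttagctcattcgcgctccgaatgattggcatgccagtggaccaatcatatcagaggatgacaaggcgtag
Tars, chr15:11399659-11399778, minus strand: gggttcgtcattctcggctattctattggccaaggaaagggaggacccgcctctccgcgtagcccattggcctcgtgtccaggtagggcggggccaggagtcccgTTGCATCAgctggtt
The first letter of the element lay at -23 from the start in Asns, -193 in Chac1, -110 in Nupr1, -112 in Aars and -15 in Tars, and Aars held a second copy at 9 bases past its start. A match to these letters is a description of the sequence, and binding was not measured.

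Most of these genes had lower signals on the inhibitor arrays. Of the 32 genes tested for the TC and S2101 arrays against the vehicle arrays, 8 fell and 0 rose by limma with Benjamini-Hochberg adjustment over all 9097 genes at 0.05, where 3.74% of all genes tested fell and 4.28% rose. The 8 were Phgdh, Mthfd2, Aldh18a1, Asns, Slc7a5, Atf5, Atf4 and Nars. The differences on the log2(signal + 50) scale had a median of -0.19 over the 32 genes, against 0.01 over all genes tested, and 27 of the 32 were below 0, against 47.1% of all genes tested. At an unadjusted p under 0.05, 19 of the 32 genes were lower, where 10.4% of all genes tested were. Both inhibitor arrays lay below both vehicle arrays for 22 of the 32 genes, where 23.4% of all genes tested did so, and above both for 0, where 27.6% did.

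The changes were modest in size. The largest of the 8 falls was 0.60 on the log2 scale, so that the inhibitor arrays averaged 65.3% of the vehicle signal for Phgdh, and the smallest was 0.26, or 83.1% of the vehicle signal, for Nars. The count of falls was 7 without the TC array, 5 without the S2101 array, 4 without vehicle 1 and 5 without vehicle 2. Asns, Phgdh and Mthfd2 kept their calls in every alternative that could be run for them, and the other 5 lost it in at least 1. Atf4, Atf5, Slc7a5 and Nars each lost it with no brightness filter and with no intensity trend.

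**Figure D1:**
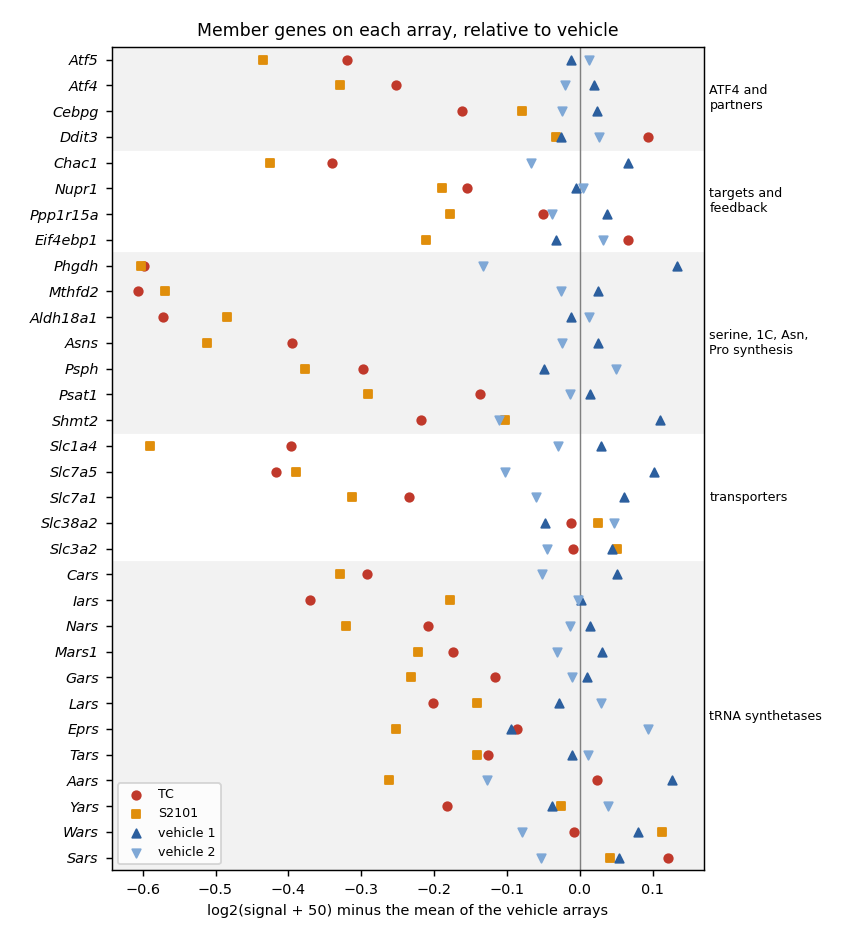
Signal of the 32 tested genes on each array as log2(signal + 50) minus the mean of the vehicle arrays (x axis), with 1 row per gene and shading by role. The TC and S2101 points lie left of both vehicle points for 22 genes and overlap them for 10.

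The transcription factors came first in the order of roles. Atf4 itself had signals of 6536 with TC and 6195 with S2101, against 7906 and 7686 on the vehicle arrays. Both inhibitor arrays were therefore below both vehicle arrays, and Atf4 fell, at -0.29 ± 0.07 on the log2 scale (SE; limma adjusted p = 0.0257). That call ended without vehicle 1 (adjusted p = 0.170, limma), without vehicle 2 (0.106) and without the S2101 array (0.0576). Atf5, a related leucine zipper factor that is also controlled at translation, had signals of 786 with TC and 722 with S2101, against 985 and 1002 on the vehicle arrays. It fell by 0.38 (SE 0.10; adjusted p = 0.0408, limma), a call that ended without vehicle 1 (0.106), vehicle 2 (0.149) or the S2101 array (0.116).

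The other factors of this group did not pass. Ddit3, which encodes the stress factor CHOP, had signals of 1070.1 with TC and 976 with S2101, against 981 and 1019 on the vehicle arrays. Its groups overlapped, with a log2 difference of 0.03 and a 95% interval from -0.18 to 0.24. Cebpg, which encodes a C/EBP partner of ATF4, stood at -0.12 ± 0.10 (SE).

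Among the target and feedback genes, 0 of the 4 tested passed by limma, where 3.74% of all genes tested fell and 4.28% rose. At an unadjusted p under 0.05, 2 were lower, where 10.4% of all genes tested were. Chac1, whose product degrades glutathione, had signals of 523 with TC and 490.0 with S2101, against 709 and 642 on the vehicle arrays. The arrays did not overlap, and the difference of -0.38 ± 0.11 (SE) missed the threshold (adjusted p = 0.0626, limma). Nupr1, a small stress-response chromatin protein gene, stood at -0.17 ± 0.07, with 3547 and 3460.2 on the TC and S2101 arrays against 3938 and 3966 on the vehicle arrays. Ppp1r15a, the regulatory subunit that directs a phosphatase to eIF2 and so closes the loop, stood at -0.11 (95% interval -0.39 to 0.16), and Eif4ebp1, an inhibitor of cap-dependent translation, at -0.07 (-0.28 to 0.13).

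Trib3 and Sesn2 were below the brightness filter, a mean signal of 178.8, and were not tested. Trib3, a pseudokinase that restrains ATF4, had signals of 155 with TC and 139 with S2101, against 126 and 201 on the vehicle arrays, which enclosed both. Sesn2, a leucine sensor upstream of the growth kinase mTORC1, had signals of 59.5 with TC and 55.1 with S2101, against 133 and 115 on the vehicle arrays. The Sesn2 arrays did not overlap, but with every gene tested irrespective of brightness the difference did not pass (-0.70 ± 0.20; adjusted p = 0.195, limma). A further Sesn2 probe set of similar brightness overlapped between groups and stood at -0.13. Its signals were 96.4 with TC and 69.0 with S2101, against 118 and 74.3 on the vehicle arrays.

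The enzymes of amino acid and one-carbon synthesis held 4 of the 8 falls. All 7 tested genes of this group had differences below 0, with a median of -0.45, and 4 fell: Phgdh, Mthfd2, Aldh18a1 and Asns. Among all genes tested, 47.1% had a difference below 0 and 3.74% fell. Phgdh, which catalyses the first step of serine synthesis, had signals of 2735 with TC and 2727 with S2101, against 4574 and 3795 on the vehicle arrays. The inhibitor arrays were nearly equal and the vehicle arrays were apart, and Phgdh fell by 0.60 (SE 0.09; adjusted p = 0.00335, limma). The later enzymes of serine synthesis did not pass. Psat1, the aminotransferase of that pathway, had signals of 3859 with TC and 3464 with S2101, against 4289 and 4209 on the vehicle arrays, a difference of -0.21 ± 0.08 (adjusted p = 0.128, limma). Psph, the phosphatase that completes it, had 853 with TC and 804 with S2101, against 1022 and 1099 on the vehicle arrays, a difference of -0.34 ± 0.10 (adjusted p = 0.0580, limma). All 3 serine synthesis genes had both inhibitor arrays below both vehicle arrays, as did 23.4% of all genes tested, and 1 of them passed.

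In mitochondrial one-carbon metabolism, Mthfd2, a dehydrogenase and cyclohydrolase of folate intermediates, had signals of 777 with TC and 798 with S2101, against 1231 and 1186 on the vehicle arrays. It fell by 0.59 (SE 0.09; adjusted p = 0.00348, limma), to 65.2% of the vehicle signal. Shmt2, the mitochondrial serine hydroxymethyltransferase that supplies this pathway, had 553 with TC and 603 with S2101, against 707 and 599.8 on the vehicle arrays. Those groups overlapped, and the difference of -0.16 did not pass (95% interval -0.42 to 0.10).

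Aldh18a1 and Asns make precursors of proline and asparagine itself. Aldh18a1, the mitochondrial pyrroline-5-carboxylate synthase, had signals of 1367 with TC and 1457 with S2101, against 2039 and 2076 on the vehicle arrays. It fell by 0.53 (SE 0.08; adjusted p = 0.00348, limma), and every inhibitor value lay below every vehicle value. Asns, asparagine synthetase, whose promoter element is printed above, had 1701 with TC and 1564 with S2101, against 2292 and 2213 on the vehicle arrays. It fell by 0.45 (SE 0.08; adjusted p = 0.00751, limma), to 72.5% of the vehicle signal, and stayed under 0.05 in each alternative (largest adjusted p = 0.0439).

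**Figure D2:**
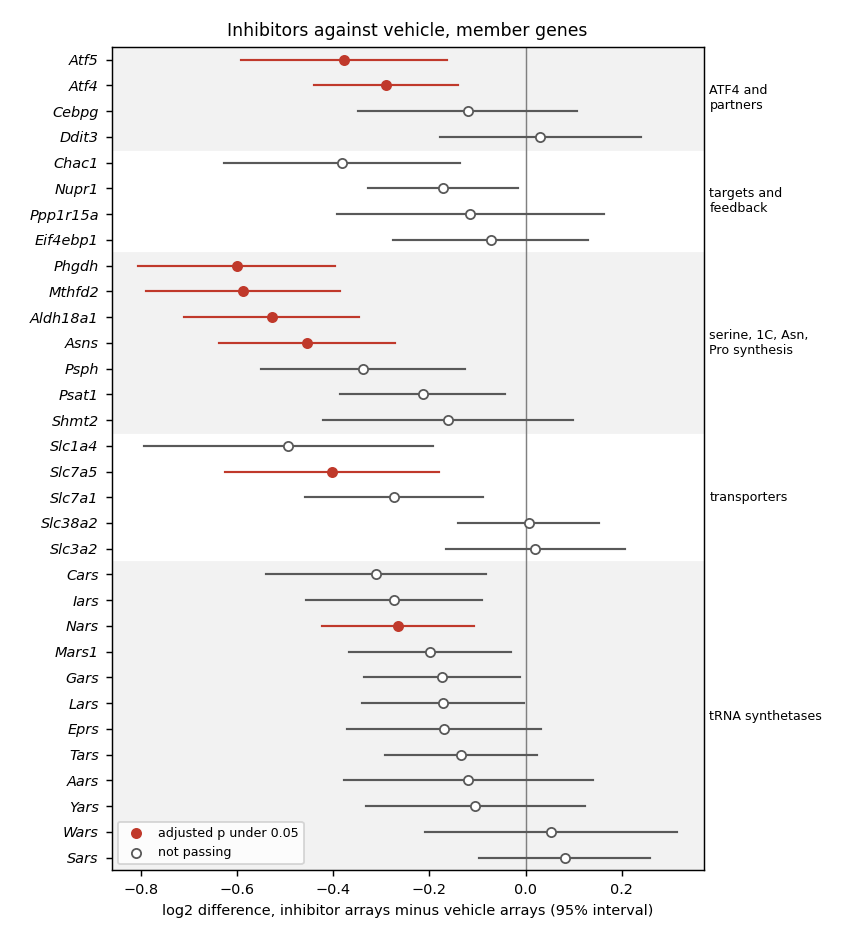
Log2 difference of the inhibitor arrays (TC and S2101) minus the vehicle arrays for each tested gene, with its 95% interval from limma. Filled red points are the 8 genes with an adjusted p under 0.05, from -0.26 for Nars to -0.60 for Phgdh.

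Of 5 amino acid transporter genes tested, 1 fell, where 3.74% of all genes tested fell. Slc7a5, the transporter of leucine and other large neutral amino acids, had signals of 864 with TC and 882 with S2101, against 1260 and 1087 on the vehicle arrays. It fell by 0.40 (SE 0.10; adjusted p = 0.0362, limma), but without vehicle 1, the higher of its vehicle arrays, the difference was -0.30 and the call ended (0.235), as it did without the TC (0.0950) or S2101 array (0.0646). Its partner Slc3a2, the heavy chain that carries the transporter to the membrane, had 1568 with TC and 1637 with S2101, against 1630.4 and 1529.6 on the vehicle arrays. Slc3a2 overlapped between groups, at 0.02 with a 95% interval from -0.17 to 0.21. Whether the difference of Slc7a5 exceeded that of Slc3a2 was not tested.

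Slc1a4, a carrier of alanine, serine and cysteine, had signals of 299 with TC and 255 with S2101, against 419 and 400.2 on the vehicle arrays. Its difference of -0.49 ± 0.13 (adjusted p = 0.0527, limma) missed the threshold, and its arrays did not overlap. Slc7a1, the carrier of cationic amino acids, stood at -0.27 ± 0.08 (adjusted p = 0.0765, limma), with both inhibitor arrays below both vehicle arrays. Slc38a2, a sodium-coupled carrier of small neutral amino acids that is induced by amino acid shortage, had 11309 with TC and 11607 with S2101, against 11037 and 11786 on the vehicle arrays, and stood at 0.01 (95% interval -0.14 to 0.15). Slc7a11, the cystine and glutamate exchanger, and Slc1a5, the glutamine carrier, were below the filter. Slc7a11 had 21.1 and 6.72 on the TC and S2101 arrays, against 47.7 and 9.81 on the vehicle arrays, and Slc1a5 had 65.5 and 62.7, against 82.8 and 24.0 on the vehicle arrays. Both overlapped between groups, and no fold change is given for them.

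The 12 cytosolic tRNA synthetases, which load amino acids onto their tRNAs, had 1 fall among them, where 3.74% of all genes tested fell. Their median difference was -0.17, and 10 of 12 were below 0, against 47.1% of all genes tested. Both inhibitor arrays lay below both vehicle arrays for 7 of the 12, against 23.4% of all genes tested. Nars, the asparagine enzyme, had signals of 4990.1 with TC and 4611 with S2101, against 5829 and 5718 on the vehicle arrays. It fell by 0.26 (SE 0.07; adjusted p = 0.0491, limma), a call near the threshold that ended without vehicle 1 (0.238), vehicle 2 (0.182) or the S2101 array (0.112).

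The synthetases of cysteine and isoleucine did not pass, with differences of -0.31 and -0.27. Cars had 605 with TC and 589 with S2101, against 782 and 724 on the vehicle arrays, with an SE of 0.10 (adjusted p = 0.101, limma). Iars had 2885 with TC and 3303 with S2101, against 3748 and 3737 on the vehicle arrays, with an SE of 0.08 (adjusted p = 0.0725, limma). Neither overlapped between groups. Mars1 (-0.20), Gars (-0.17), Lars (-0.17) and Tars (-0.13), the enzymes of methionine, glycine, leucine and threonine, also had both inhibitor arrays below both vehicle arrays. Eprs, the joint glutamate and proline enzyme, (-0.17), Aars of alanine (-0.12), Yars of tyrosine (-0.10), Wars of tryptophan (0.05) and Sars of serine (0.08) overlapped between groups. The widest of these 5 intervals, that of Wars, ran from -0.21 to 0.31.

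The compounds were also set against vehicle singly, with 1 array each, so that the lone array was assumed to vary like the vehicle arrays. With TC 5 of the 32 genes fell and 0 rose, where 3.81% of all genes tested fell and 4.36% rose. With S2101 6 fell and 0 rose, where 3.33% fell and 3.37% rose. Phgdh, Mthfd2, Aldh18a1 and Asns fell in both comparisons, which share their vehicle arrays. With TC alone the call also took in Iars, and with S2101 alone Atf4 and Nars. Phgdh stood at -0.60 with TC and -0.60 with S2101, Mthfd2 at -0.61 and -0.57, Aldh18a1 at -0.57 and -0.48, and Asns at -0.40 and -0.51. Iars stood at -0.37 ± 0.08 with TC and -0.18 ± 0.08 with S2101 (adjusted p = 0.0190 and 0.223, limma), and Atf4 at -0.25 ± 0.07 and -0.33 ± 0.07 (0.0591 and 0.0228). Atf5 and Slc7a5, which fell in the joint comparison, passed for neither compound. No call for a single compound remained among these genes by limma without the brightness filter or without the intensity trend.

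Tested directly, 0 of the 32 genes differed between TC and S2101 by limma, where 0.033% of all genes tested did, and 1 had an unadjusted p under 0.05. The smallest adjusted p was 0.445, for Eif4ebp1, at 0.28 (95% interval 0.09 to 0.47; TC minus S2101), with 6357 for TC and 5236 for S2101. The interval of the same difference ran from -0.11 to 0.35 for Asns, from -0.27 to 0.28 for Phgdh, from -0.32 to 0.25 for Mthfd2 and from -0.39 to 0.01 for Iars. Differences of that width between the compounds were not detectable with 1 array each. No dose is stated for either compound, so these values do not compare them at matched doses.

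Several genes could be read from more than 1 probe set. Among 26 further probe sets above the brightness filter, from 19 of the genes, 24 had a difference below 0, as did 49.8% of all 14922 probe sets above the filter. Both inhibitor arrays lay below both vehicle arrays for 18 of the 26, against 24.3% of all, and above both for 1, a second Wars probe set at 0.14, against 25.0% of all. A fit over all 14922, in which 2.38% were called lower and 2.47% higher, called 4 of the 26 lower and 0 higher: 1 of Asns, at -0.72, 1 of Aldh18a1, at -0.63, and 2 of Phgdh, at -0.54 and -0.41. The second Asns probe set had 1068 with TC and 1112 with S2101, against 1885 and 1773 on the vehicle arrays, a larger difference than in the one used for the gene. A further Psat1 probe set also had a larger difference than the one used, at -0.42 against -0.21, and did not pass that fit (adjusted p = 0.0658, limma). The second Mthfd2 probe set, at -0.42 against -0.59 in the one used, did not pass it (0.0583). Nor did a further Phgdh probe set, at -0.38 against -0.60 (0.0935). Both had each inhibitor array below both vehicle arrays.

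Some probe sets disagreed. A further Aldh18a1 probe set stood at 0.03, with 172 and 207 on the TC and S2101 arrays against 165 and 205 on the vehicle arrays, and averaging the probe sets of Aldh18a1 gave -0.34 and ended its call (adjusted p = 0.0906, limma). The second Nars probe set stood at -0.05, with 3307 and 3097 on the TC and S2101 arrays against 3302 and 3308 on the vehicle arrays, and the average of the Nars probe sets did not pass (-0.16; 0.245). Atf4 had a further bright probe set at -0.36, with 3392 and 4253 on the TC and S2101 arrays against 4655 and 5139 on the vehicle arrays. The average of all Atf4 probe sets, which takes in a very dim one, did not pass (-0.20; adjusted p = 0.212, limma). Sars stood at -0.13 and Slc38a2 at -0.15 in their further bright probe sets, the opposite sign to the ones used. Eprs overlapped between groups in the probe set used, but its further bright probe sets, at -0.27 and -0.39, had both inhibitor arrays below both vehicle arrays. Neither passed the fit over all bright probe sets (adjusted p = 0.147 and 0.0990, limma). The 4 Phgdh probe sets all end in _x_at, the Affymetrix mark for probes that may also match other sequences, so Phgdh has no value without that class. Without it Aldh18a1 stood at -0.49 and did not pass (adjusted p = 0.0800, limma).

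**Figure D3:**
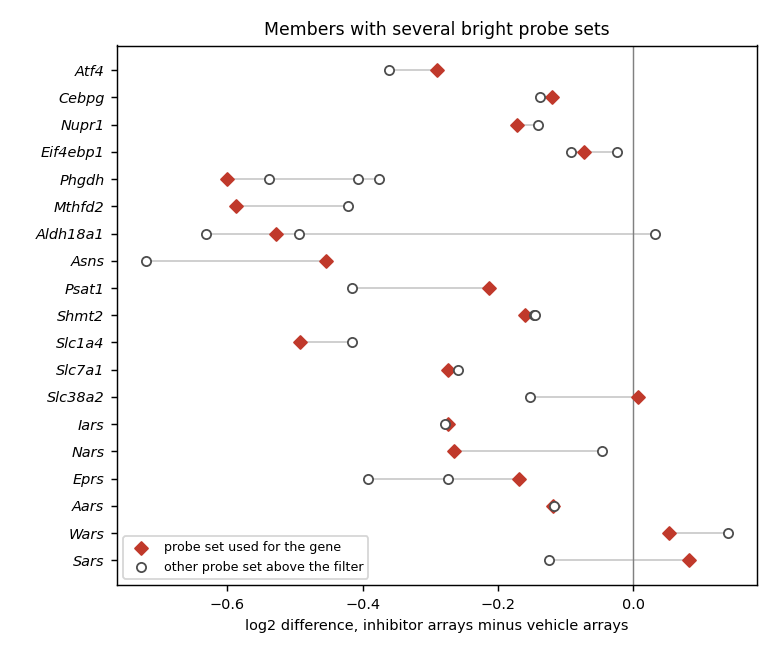
Log2 difference, inhibitor arrays minus vehicle arrays, in every probe set above the brightness filter for the 19 genes that have more than 1. Red diamonds are the probe sets used for the gene. Open circles are the 26 others, 24 of which lie below 0.

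Genes around the programme were read from further lists chosen by known function, with earlier results of these data known. Of all genes tested, 3.74% fell and 4.28% rose. The rest of the one-carbon and folate genes gave 2 falls among 6 tested, with a median of -0.24. Aldh1l2, a mitochondrial formyl-folate dehydrogenase, had 362 with TC and 379.7 with S2101, against 603 and 573 on the vehicle arrays, and fell by 0.60 (SE 0.11; adjusted p = 0.0100, limma), though not without the brightness filter (0.0660). Mthfd1l, the mitochondrial enzyme that releases formate, fell by 0.37 (SE 0.10; adjusted p = 0.0484, limma). That call ended without any 1 of the 4 arrays, with no brightness filter, with no intensity trend and in the fit over all bright probe sets.

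Among 10 other amino acid enzymes, 1 fell and 1 rose, with a median of 0.03. Bcat1, the cytosolic branched-chain aminotransferase, had 231 with TC and 209 with S2101, against 493 and 556 on the vehicle arrays, and fell by 1.09 (SE 0.13; adjusted p = 0.00106, limma). Its fall was smaller with its probe sets averaged (-0.63) or with the offset at 50% of the trimmed mean (-0.72), and passed in both. Asl, argininosuccinate lyase, rose by 0.45 ± 0.11 (adjusted p = 0.0315, limma). That call ended without the TC array or vehicle 1, with no brightness filter, with no intensity trend and in the fit over all bright probe sets. Of 11 other transporters, Slc38a1, a relative of Slc38a2, rose by 0.43 ± 0.08 (adjusted p = 0.0107, limma), though not with its probe sets averaged (0.23; 0.191). Slc1a3, a glutamate carrier, fell by 0.68 (SE 0.16; adjusted p = 0.0270, limma). That call ended without the TC array, without either vehicle array and with no brightness filter. With the offset at 50% of the trimmed mean the Slc1a3 difference was -0.38. The other 9 did not pass, and the median was 0.21.

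Synthetases outside these 12 were read as well. Of 10 other cytosolic synthetases and scaffold proteins of their complex, 0 passed by limma (0 lower and 0 higher at an unadjusted p under 0.05), with a median of -0.13 and Vars, the valine enzyme, farthest from 0 at -0.20. Of 10 mitochondrial synthetases, which have their own genes, Fars2 for phenylalanine rose by 0.52 ± 0.12 (adjusted p = 0.0232, limma), with 619.9 and 713 on the TC and S2101 arrays against 431 and 467 on the vehicle arrays, and 9 did not pass. The call of Fars2 ended without the S2101 array or vehicle 1, with no brightness filter and with its probe sets averaged. The median of that list was 0.12. Whether the lists differ from each other was not tested.

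Upstream of ATF4, 0 of 14 genes of the eIF2 kinases, eIF2, its exchange factor and its phosphatase passed by limma. Of all 9097 genes tested, 943 were lower and 1086 higher at an unadjusted p under 0.05. At that threshold 1 of the 14 was lower (Ppp1r15b, a further phosphatase subunit, at -0.20 ± 0.08). Likewise 1 was higher (Eif2b2, a subunit of the exchange factor, at 0.22 ± 0.07). The median of the 14 was 0.07, and Eif2ak4, the kinase that senses uncharged tRNA, was farthest from 0, at -0.26 ± 0.13 (adjusted p = 0.283, limma). Of 11 genes by which leucine and arginine reach mTORC1, 0 passed in the joint comparison. At an unadjusted p under 0.05, 1 was lower and 3 were higher, 9 of 11 differences were above 0, and the median was 0.12. Of all 9097 genes tested, 4815 had a difference above 0, and the median was 0.01. The arginine sensor Castor1 was farthest from 0, at -0.37 ± 0.17 (adjusted p = 0.239, limma). Rragc, a GTPase that recruits mTORC1 to lysosomes, rose with TC alone (0.27; adjusted p = 0.0462, limma) and stood at 0.22 in the joint comparison (0.0834).

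Other genes known to respond to ATF4 were read too. Of 11 tested, 1 rose and 0 fell, where 4.28% of all genes tested rose and 3.74% fell. The median was 0.26, and by limma 4 were higher and 0 lower at an unadjusted p under 0.05. Of all 9097 genes tested, 1086 were higher and 943 lower at that threshold. Both inhibitor arrays lay above both vehicle arrays for 7 of the 11, against 27.6% of all genes tested. They lay below both for 3, against 23.4%. Cebpb, which encodes a C/EBP factor that many signals induce, had 3184 with TC and 2970.1 with S2101, against 2274 and 2295 on the vehicle arrays, and rose by 0.42 ± 0.08 (adjusted p = 0.00745, limma). Ddit4, an inhibitor of mTORC1, and Sqstm1, an autophagy receptor, rose with TC alone (adjusted p = 0.0181 and 0.0129, limma) and stood at 0.39 and 0.29 in the joint comparison, where they did not pass (0.0503 and 0.0507).

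**Figure D4:**
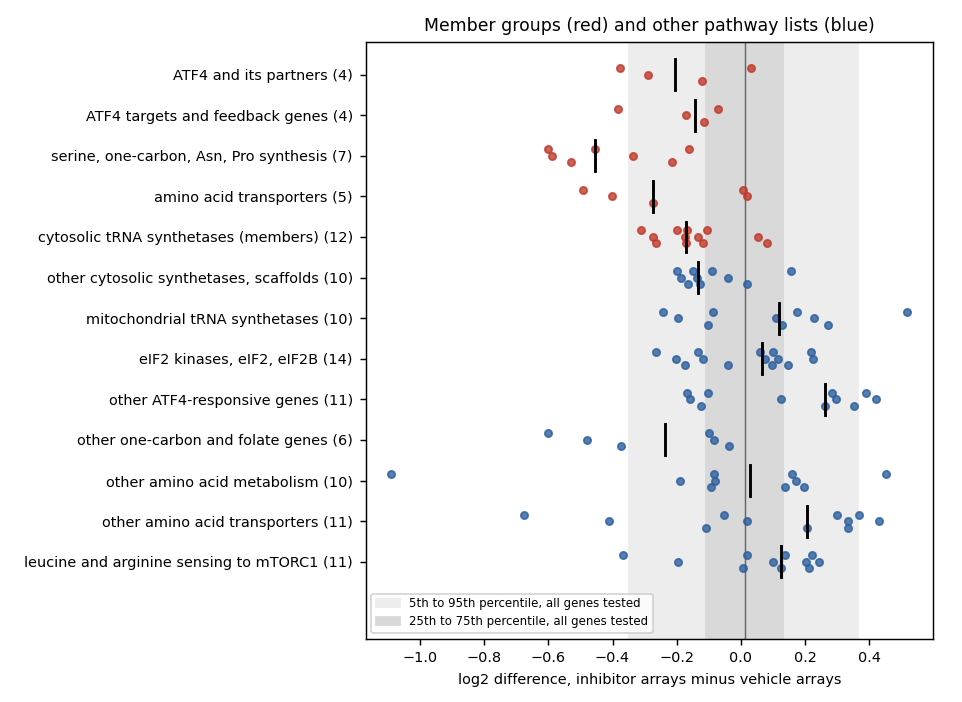
Log2 difference, inhibitor arrays minus vehicle arrays, for each tested gene (points) of the 5 groups described here (red) and of 8 other lists (blue), with the number of genes in brackets. Black bars are medians, from -0.45 for the synthesis enzymes to 0.26 for other ATF4-responsive genes, and grey bands show the spread of all 9097 genes tested.

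Markers of the cells were read beside these values. All 8 myoblast and myotube markers were above the filter, with summed signals of 79416 with TC and 71784 with S2101, against 74610.5 and 75038.5 on the vehicle arrays, and 0 of them passed by limma (1 with a lower level at an unadjusted p under 0.05). All 5 proliferation markers read fell (Mki67, Top2a, Cdk1, Mcm5 and Ccna2), with summed signals of 4861 with TC and 4394 with S2101, against 8651 and 8886 on the vehicle arrays. Top2a lost its call with its probe sets averaged (-0.43; adjusted p = 0.0597, limma). The part of the proliferation markers in the lower levels of amino acid genes was not tested, and in bulk samples fewer cells of a kind and less RNA per cell cannot be told apart. The 5 leukocyte, 4 endothelial and 4 adipocyte markers were all below the filter, and 2 of 5 neuronal markers, Tubb3 and Nefl, were above it. Both had each inhibitor array below both vehicle arrays, at -0.22 and -0.46 in the joint comparison, where neither passed, and Nefl fell with S2101 alone (-0.68; adjusted p = 0.0289, limma). Gapdh signal at the 3′ end over that at the 5′ end, which reads RNA integrity, was 0.790 with TC and 0.743 with S2101, against 0.782 and 0.770 on the vehicle arrays.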

How the data were processed

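Each array gave 1 value per probe set, deposited as MAS5 signal intensity on a linear scale. MAS5 and Affymetrix Expression Console are named in the submitters' processing notes, without versions. Detection calls and scan batches were not used here. As deposited, the intensities of every array shared a 2% trimmed mean of 500.0, and they were left as scaled. The number of arrays limits the precision.

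Values were analysed as log2(signal + 50), where 50 is 10% of that trimmed mean, which understates differences of dim genes. The brighter genes, with a mean signal of 178.8 (the median over genes) or more, were tested in R 4.3.3 with limma 3.58.1, using eBayes and its intensity trend, and Benjamini-Hochberg adjustment over all 9097 genes. The joint comparison set the TC and S2101 arrays against the vehicle arrays (2 residual degrees of freedom), and a fit with 3 groups gave each compound (1 residual degree of freedom). The joint comparison pools both compounds as 1 condition by choice, so any difference between them enters its error. The lone array of a compound was assumed to vary like the vehicle arrays. The fits were tested on simulated data.

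Members, lists and the promoter motif were chosen with earlier results of these data known. Members past a test and Atf4 are given in full, and from each other list the genes past the test (up to 4) or the one farthest from 0. Ddit4, Sqstm1, Rragc, Eif2b2, Ppp1r15b, Tubb3 and Nefl were named after their values were seen. Alternatives were offsets of 2% and 50%, other brightness filters, no intensity trend, averaged probe sets, quantile normalization, leaving out each array and the joint contrast from the fit with 3 groups. A fit over all bright probe sets and one without probe sets ending in _x_at were chosen after seeing the data.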

Additional observations from a re-analysis of the deposited data

How the results depend on the processing

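Every alternative for the joint comparison of inhibitors with vehicle kept the 32 genes' falls in 1 direction, with 0 rises among them by limma. The 8 falls became 4 with no brightness filter (0.676% of all features tested fell), 5 with no intensity trend (2.28%), 5 in the fit over all bright probe sets (2.38%) and 4 to 7 when 1 array was left out (2.40% to 3.88%). They were 8 with either other offset (3.74% and 3.75%), 7 with the stricter filter (4.35%), 6 with probe sets averaged (2.69%), 6 without probe sets ending in _x_at (3.62%), 11 with quantile normalization (4.48%) and 12 with the joint contrast from the fit with 3 groups (5.51%). No fall with TC alone or with S2101 alone kept its call by limma with no filter or with no intensity trend. Few of all genes tested were called in those settings. The count of differences between TC and S2101 was 0 by limma in each alternative (0 to 2 at an unadjusted p under 0.05). The median difference of the genes ran from -0.24 to -0.19 when 1 array was left out, and from -0.20 to -0.17 in the others. Among single genes, no called difference changed sign, and 5 others (Chac1, Psph, Slc7a1, Slc1a4 and Iars) passed in at least 1 alternative. The labels give no scan or culture batch. Leaving out a vehicle array was not run for the single compounds, since no residual degree of freedom would remain, and 1 array per compound leaves differences between the compounds poorly resolved.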
